A study of Homo sapiens with 12 samples.

Results

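This comparison sets 2 single clones of the lymphoma line SUDHL4 that lack the acetyltransferase CREBBP against 2 that lack its relative EP300. SUDHL4 is an established human cell line from a diffuse large B-cell lymphoma, with features of germinal-centre B cells. The members are the H3K27ac peak lists of these 4 clones, chosen by genotype from the 12 samples of the series, of which 6 are immunoprecipitated libraries. The clones were made with CRISPR/Cas9 and isolated by limiting dilution, and per the labels the loss of the protein was checked by sequencing and western blot. The CREBBP knock-out clones (CREBBP-KO) are CBP-E13-5 and CBP-E20-9, with guides against exons 15 and 20 of CREBBP. The name of the first carries another exon number than its protocol. The EP300 knock-out clones (EP300-KO) are P300-E17-17 and P300-E24-5, with guides against exons 17 and 24 of EP300. As far as the labels say, each clone was edited at 1 of these 2 genes only. The series also holds 2 control clones edited at PPP1R12C (WT), which are given here as background values and enter no test unless named. Each clone grew from 1 cell and gave 1 library, so the spread between 2 clones of a genotype is the only error at hand, and differences between single clones cannot be told apart from the genotype beyond that spread.

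CREBBP and EP300 are paralogous enzymes that acetylate histones, including lysine 27 of histone H3 at enhancers and promoters in use. Transcription factors bring them to DNA, and broad clusters of acetylated peaks mark the strongest enhancers of a cell type. In the germinal centre, B cells divide and mutate their antibody genes in the dark zone and are selected with T-cell help in the light zone. CREBBP is among the genes most often mutated in lymphomas that arise from this reaction, and EP300 is mutated less often. Setting one knock-out against the other asks which acetylated regions of the same cell line differ according to the enzyme that is left.

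A peak here is an interval that the authors called as enriched over the clone's own input, and covered bases are the bases under peaks. On chromosomes 1 to 22 34921 and 39763 peaks were called in the CREBBP-KO clones against 33969 and 34733 in the EP300-KO clones. Peaks together covered 27.5 and 34.1 Mb in CREBBP-KO but 25.4 and 25.5 Mb in EP300-KO. Both CREBBP-KO clones lay above both EP300-KO clones in number, covered length and median peak width (467 and 493 bases against 462 and 454). The two-sided exact permutation test gave p = 0.33 for each of these, the smallest that 2 clones against 2 allow, and among peaks with a score of at least 30 the clones overlapped in number (exact permutation p = 1). The second CREBBP-KO clone stands apart: its covered length is well above that of the other 3 clones. Counts of regions and domains are given with and without it, but values at most named genes are given with it only. The depth of the single libraries is unknown. Markers of the labelled cell type were checked as bases under peaks in the gene body: the B-cell markers MS4A1, CD79A, CD79B, CD22 and PAX5 were covered in all 4 clones, and so were the germinal-centre markers BCL6 and MYBL1, while LMO2 had 497 bases in the second CREBBP-KO clone and 0 in the others. Of the markers of other lineages, CD2, CD14, ALB and MYOD1 had 0 bases in all 4 clones, while CD3E had 1426 to 2586 and SPI1, which B cells also use, 1885 to 2312. A smaller share of cells with the mark and less of the mark per cell cannot be told apart in such bulk samples.

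Most acetylated regions were held by both genotypes, and regions confined to CREBBP-KO outnumbered those confined to EP300-KO. Overlapping peaks of the 4 lists were merged, which gave 42919 regions, and 1 covered base sufficed to count a region as present in a clone. All 4 clones had 22555 regions (52.6%). Another 3340 (7.78% of all regions) were present in both CREBBP-KO clones and absent from EP300-KO, and the reverse held for 1389 (3.24%). These regions were short: those of CREBBP-KO alone made up 4.09% of its covered bases and those of EP300-KO alone 1.8%. The largest class on which clones of 1 genotype disagreed was the 7048 regions of the second CREBBP-KO clone alone, against 746 of the first, 1599 of the first EP300-KO clone and 928 of the second. With 1 clone left out, so that 1 clone stands against 2, the counts were 10608 and 1622 without the first CREBBP-KO clone, 5566 and 3002 without the second, 4114 and 2516 without the first EP300-KO clone and 4665 and 3083 without the second. CREBBP-KO kept the larger count each time. When each list was cut to the length of the shortest by score, the counts were 2752 and 1731.

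**Figure D1:**
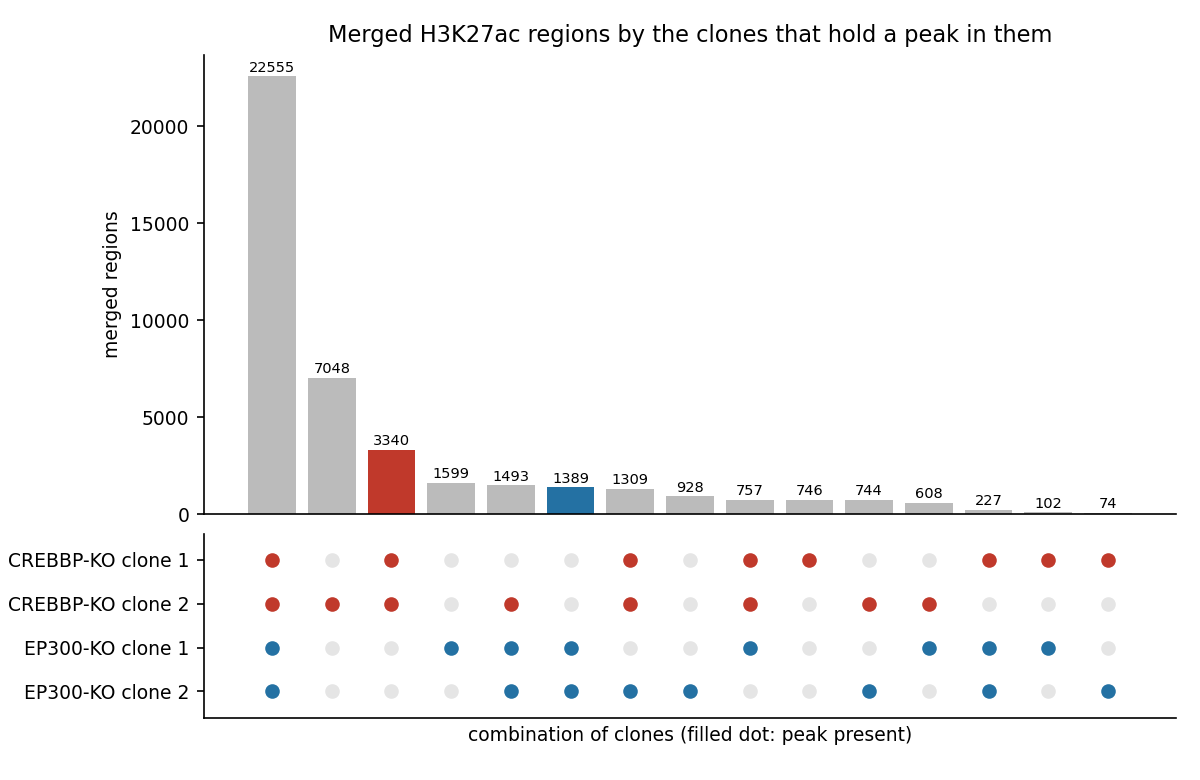
Bars give the number of merged regions (vertical axis) for each combination of the 4 knock-out clones, and the filled dots under each bar show which clones held a peak. Regions of both CREBBP-KO clones alone (red bar, 3340) outnumber those of both EP300-KO clones alone (blue bar, 1389), and 7048 regions are seen in the second CREBBP-KO clone alone.

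Covered bases per region gave the same balance. A region entered the test once 2 or more clones covered at least 500 of its bases, and limma compared log2(covered bases + 100) after centring each clone on its median over regions shared by all 4. Of 17448 regions tested, 1099 were higher in CREBBP-KO (6.3%) and 396 lower (2.27%) at a Benjamini-Hochberg adjusted p of 0.05. Of these, 385 higher regions had no peak in either EP300-KO clone and 139 lower regions none in either CREBBP-KO clone. Where both clones of a genotype have 0 bases, their spread comes from the centring alone and their log2 difference moves with the 100 bases added, so bases, with no fold and no p-value, are given for such regions as a description. The counts depend on both CREBBP-KO clones. Without the first, 0 regions passed in either direction, and without the second, 0 were higher and 104 lower. The lone clone is then assumed to vary like the other pair, and the 385 regions bare in EP300-KO no longer have 2 clones to pass the filter. Why the other calls were lost was not tested. In a fit of all 6 clones, in which the WT clones share the estimate of the spread, 1148 regions were higher and 312 lower. The same fit gave 655 and 184 without the first CREBBP-KO clone, 440 and 311 without the second, 765 and 36 without the first EP300-KO clone and 1253 and 70 without the second.

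The regions with the largest log2 difference higher in CREBBP-KO were bare in both EP300-KO clones. All 10 held a peak in both WT clones, as did 97.6% of all regions tested. Genes were assigned by hg19 position as a description of place, not of regulation. The first lies at chr4:108510041-108513572, about 20 kb from PAPSS1, which makes the sulphate donor of the cell. It had 3057 and 3412 covered bases in CREBBP-KO, 0 and 0 in EP300-KO and 1545 and 1478 in WT. The second, at chr11:72857619-72860953 just beyond FCHSD2, which encodes a membrane-bending protein, had 2495 and 3332 bases in CREBBP-KO and 0 in both EP300-KO clones. That the pairs of clones do not overlap at these sites follows from how the sites were chosen. WT lay between the genotypes at the first and, with 3145 and 2661 bases, stood with CREBBP-KO at the second. In ZMYND8, whose protein reads acetylated histones, 2838 and 2868 bases were covered in CREBBP-KO and 0 in both EP300-KO clones (chr20:45893901-45896768). In ABCA1, the cholesterol exporter, the values were 2295 and 2392 against 0 and 0 (chr9:107680842-107683265). Beside SELPLG, which encodes the P-selectin ligand of leukocytes, they were 2128 and 2377 against 0 and 0 (chr12:109030600-109032976). The other 5 regions lay beside SUSD1, in GALM, about 230 kb from HAO1, in LRRIQ1 and in SUGCT, with 1567 to 3384 bases in the CREBBP-KO clones and 0 in both EP300-KO clones. The calls at GALM and LRRIQ1 were lost in the fit of all 6 clones.

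The regions lower in CREBBP-KO differed in their state in the WT clones. The 10 with the largest log2 difference were bare in both CREBBP-KO clones. Of these 10, 7 were also bare in both WT clones (against 0.659% of all regions tested), so their peaks were seen in EP300-KO alone. Such a site lies in CHN2, the gene of a Rac-regulating protein, at chr7:29327788-29331131, with 0 and 0 bases in CREBBP-KO, 3344 and 1929 in EP300-KO and 0 and 0 in WT. Another lies in CNTNAP5, a neuronal adhesion gene, with 2571 and 1718 bases in EP300-KO and 0 in the other 4 clones (chr2:125071781-125074351). Yet another, about 170 kb from NTM, also a neuronal adhesion gene, had 2586 and 2288 bases in EP300-KO and 0 in the other 4 (chr11:131066699-131069284). Both EP300-KO clones held these sites and no other clone did. The remaining 4 of this kind lay in ST6GAL2 and EFNA5 and about 290 kb from N4BP1 and 200 kb from EPHB1, with 1451 to 2952 bases in the EP300-KO clones. The largest difference of all, about 80 kb from MAST4, a kinase gene, had 3150 and 2580 bases in EP300-KO and 2609 and 0 in WT (chr5:65808588-65811737), so the WT clones disagreed there. The calls near MAST4 and in ARL15 were lost in the fit of all 6 clones.

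**Figure D2:**
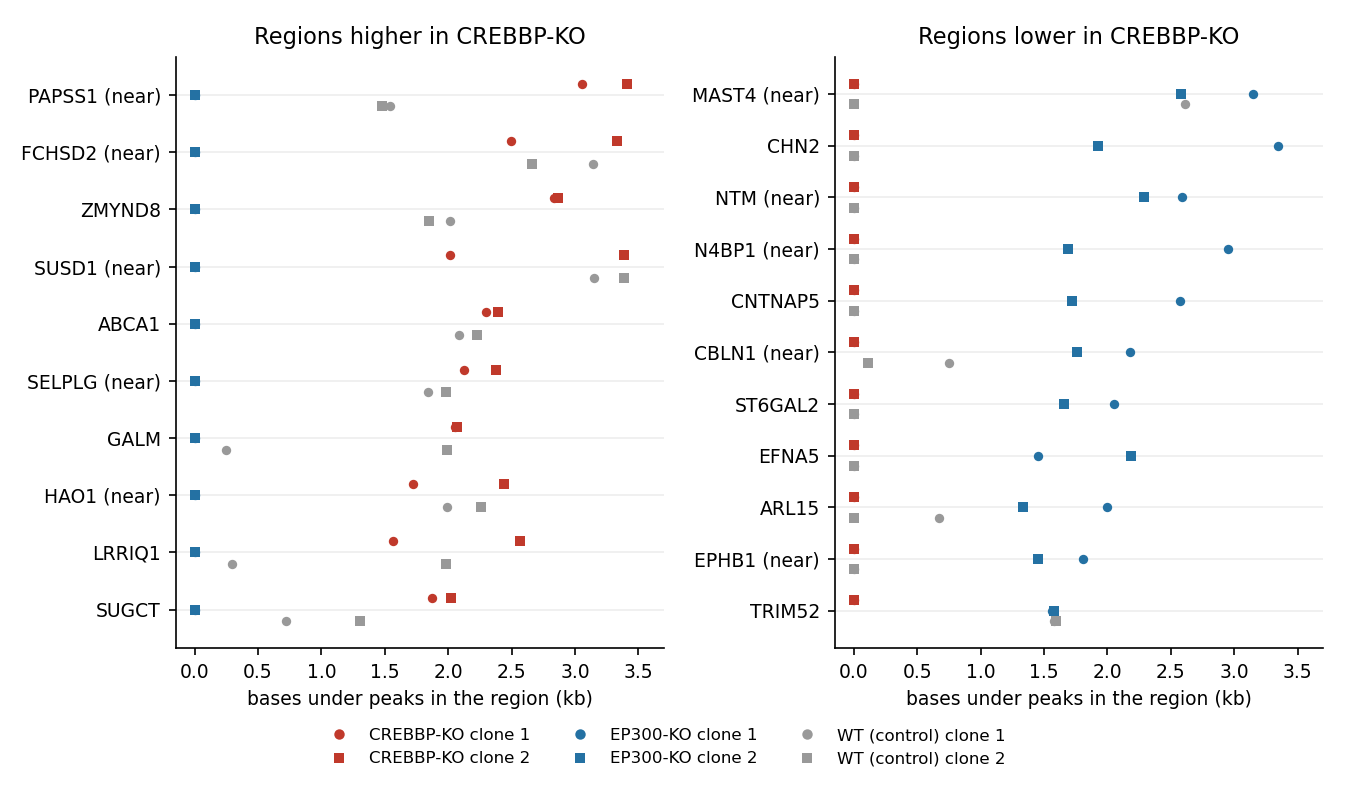
Points give the bases under peaks (horizontal axis, kb) in each clone for the 10 regions with the largest log2 difference in each direction and for TRIM52, with control clones in grey; coinciding points at 0 hide one another. All regions in the left panel are at 0 in both EP300-KO clones and all in the right panel at 0 in both CREBBP-KO clones, while the grey points sit at 0 for 7 of the first 10 regions on the right.

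A site that did hold peaks in WT lies over TRIM52, which encodes a TRIM-family ubiquitin ligase; it ranked 11 among the regions lower in CREBBP-KO and was chosen after its values were seen. The region chr5:180687573-180689167 had 0 and 0 covered bases in CREBBP-KO, 1565 and 1581 in EP300-KO and 1579 and 1595 in WT. The 4 clones that keep CREBBP thus covered it almost alike, and neither clone without CREBBP held a peak. The authors' score of this peak was 152 and 135 in EP300-KO and 138 and 139 in WT, near the top of lists that run to 170. In the 500 kb before the region, the CREBBP-KO clones covered 28311 and 33690 bases and the EP300-KO clones 30463 and 29715. Peaks on that side were thus present in all 4. In the stretch of up to 500 kb after it, the 4 knock-out clones covered 0 bases and the WT clones 0 and 208, so that side allowed no comparison. Whether the DNA itself is intact at TRIM52 in the CREBBP-KO clones was not tested. The opposite kind of change was seen at CDKN1B, the gene of the cell-cycle inhibitor p27. The domain at chr12:12867300-12889989, of peaks joined across gaps of up to about 12 kb, had 4297 and 4533 covered bases in CREBBP-KO, 8719 and 8419 in EP300-KO and 3184 and 3885 in WT. It was higher in both EP300-KO clones than in any other clone, with a log2 difference (CREBBP-KO minus EP300-KO) of -1.05 ± 0.11 (limma SE, adjusted p 0.0064). It kept its call under 10 of 10 other settings, among them the fit of all 6 clones, and lost it when any knock-out clone was left out of that fit.

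The promoters of these 2 genes are shown because covered bases differed in the window around the start. With the gene's start placed on hg19 from general knowledge, the window from 250 bases before to 30 bases after the start of TRIM52 was under a peak at 0 of its 280 bases in both CREBBP-KO clones and at all 280 in both EP300-KO clones and both WT clones. The same window at CDKN1B was covered at 63 and 106 bases in CREBBP-KO, at 280 and 280 in EP300-KO and at 0 and 50 in WT. Both sequences are from RefSeq on GRCh38.p14 (TRIM52 at chr5:181261114-181261393 on the minus strand, CDKN1B at chr12:12717118-12717397 on the plus strand), written 5′ to 3′ along the gene. Capitals mark the letters TGACG or, on the other strand, CGTCA, the core that CREB-family factors recognise, after which CREBBP was named.
TRIM52: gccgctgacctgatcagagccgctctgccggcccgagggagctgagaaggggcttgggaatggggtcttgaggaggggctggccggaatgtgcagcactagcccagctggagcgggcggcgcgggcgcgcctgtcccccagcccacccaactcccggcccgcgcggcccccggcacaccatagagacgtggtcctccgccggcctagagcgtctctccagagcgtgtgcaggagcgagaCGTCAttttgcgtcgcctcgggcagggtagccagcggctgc
CDKN1B: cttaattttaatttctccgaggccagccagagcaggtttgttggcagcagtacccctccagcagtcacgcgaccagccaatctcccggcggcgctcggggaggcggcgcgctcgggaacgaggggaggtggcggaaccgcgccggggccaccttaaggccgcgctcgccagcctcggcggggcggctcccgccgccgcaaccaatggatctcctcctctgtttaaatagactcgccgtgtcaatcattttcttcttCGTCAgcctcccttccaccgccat
Each holds 1 match, which starts at position -11 in TRIM52 and 6 in CDKN1B with the annotated start as 0, and 23.5% of 35116 RefSeq promoters of this length hold at least 1. Both are rich in CG, with 27 and 29 CG pairs against a median of 13 over all these promoters. A match is a description of the letters only.

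**Figure D3:**
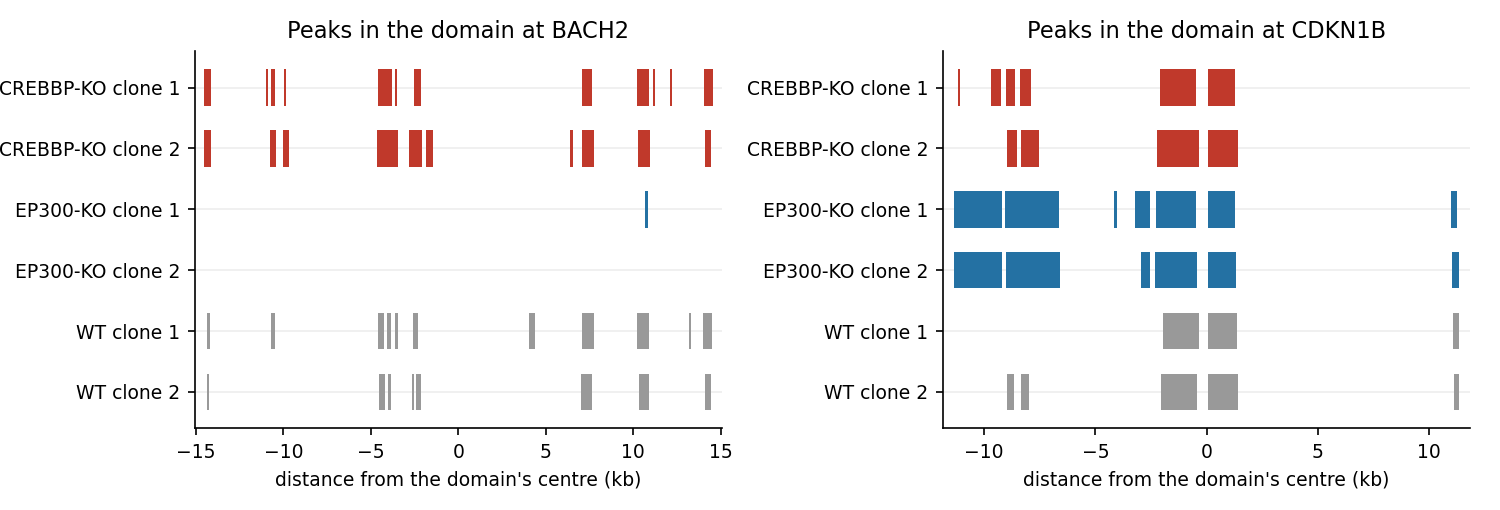
Bars mark single peaks along the domains at BACH2 and CDKN1B (horizontal axis, distance from the domain's centre in kb) in the 4 knock-out clones and the 2 control clones. At BACH2 the EP300-KO clones hold 1 and 0 peaks where the CREBBP-KO clones hold 12 and 10, and at CDKN1B the EP300-KO clones cover 8719 and 8419 bases against 4297 and 4533.

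When peaks were joined into domains across gaps of up to about 12 kb, the tilt toward CREBBP-KO was larger. Of 14418 domains, 4112 were covered at 2000 bases or more by 2 or more clones, and limma called 837 higher in CREBBP-KO (20.4%) and 158 lower (3.84%). Few of these were bare on one side, 5 of the higher and 9 of the lower. Under quantile normalization the counts were 428 higher and 325 lower, and with every domain tested 438 higher and 521 lower, so the size of the tilt depends on these choices and its direction on the filter. Without the first CREBBP-KO clone 0 domains were higher and 4 lower, without the second 37 and 41, without the first EP300-KO clone 643 and 60, and without the second EP300-KO clone 758 and 63. In the fit of all 6 clones 620 were higher and 110 lower, and leaving out a knock-out clone there gave 25 to 309 higher, lowest without the second CREBBP-KO clone, and 2 to 20 lower, lowest without the first EP300-KO clone.

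The domains with the largest log2 difference included 2 at genes of B cells. BACH2, a repressor that holds germinal-centre and memory B cells back from plasma-cell fate, carried the first. Its domain at chr6:90875543-90904659 had 4146 and 5267 covered bases in CREBBP-KO, 151 and 0 in EP300-KO and 3810 and 2648 in WT. The EP300-KO clones held 1 and 0 peaks there and the CREBBP-KO clones 12 and 10, none of which was tall, with scores of 22 to 45. SLAMF1, which encodes the lymphocyte surface receptor CD150, had 2072 and 3719 bases in CREBBP-KO and 0 and 101 in EP300-KO (chr1:160590732-160596515). In WT it had 4582 and 4266. Both domains passed the filter through the CREBBP-KO clones alone, so their bases are given with no p-value. Further domains of this kind lay over PDZRN4, LRRIQ1, RNLS, PTPRQ, CHIC2 and RSRC1, with 2010 to 7048 bases in the CREBBP-KO clones and 0 to 252 in the EP300-KO clones. CHIC2 was the only one of them bare in both WT clones, with 2010 and 2233 bases in CREBBP-KO.

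Of the 10 domains lower in CREBBP-KO with the largest log2 difference, 6 were again EP300-KO sites bare in both WT clones. The largest, at chr5:154589837-154594471 about 190 kb from KIF4B, a kinesin gene, had 4135 and 3384 bases in EP300-KO and 0 in the other 4 clones. Those at CHN2, CNTNAP5, NTM and N4BP1 hold the regions given above and were also bare in WT. A further domain at chr18:44722241-44754730, given by position alone, had 5209 and 2041 bases in EP300-KO and 0 in the other 4. PDZD2 went another way, with 3733 and 2889 bases in EP300-KO, 203 and 0 in CREBBP-KO and 3362 and 1995 in WT. Here only the clones without CREBBP were low. The domain passed the filter through the EP300-KO clones alone, and its call was lost with no filter (limma adjusted p 0.070).

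Wide domains, in which a clone covers at least 10 kb, numbered 419 and 591 in CREBBP-KO and 285 and 306 in EP300-KO. Of 596 that were wide in at least 1 clone, 120 were wide in both clones of CREBBP-KO and in none of EP300-KO (20.1%), and 1 in the reverse case (0.168%). The count was 119 without the second CREBBP-KO clone and 275 without the first. None of these 120 was bare in both EP300-KO clones. Their median cover was 12.4 kb for CREBBP-KO, against 8.26 kb for the clones that lack EP300. The limit of 10 kb that chose these domains puts the 2 medians on either side of it. The medians therefore cannot tell how far the domains differ. Of the 596, 591 were wide in the second CREBBP-KO clone, so this set is chosen almost wholly by that clone and no count of calls within it is given.

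By bases, a ranking chosen after values were seen, the domains furthest above EP300-KO were led by TOX. TOX, a lymphoid HMG-box factor, had 56.8 and 65.3 kb under peaks in CREBBP-KO against 38.9 and 41.7 kb in EP300-KO (chr8:59921903-60032311, log2 difference 0.48 ± 0.098, limma SE, adjusted p 0.026). The domain over IGLL5 in the immunoglobulin lambda locus had 53.7 and 61.0 kb against 34.9 and 40.7 kb (log2 difference 0.49 ± 0.12, limma SE, adjusted p 0.039). PTPRC, the gene of the leukocyte phosphatase CD45, had 39.9 and 48.8 kb against 26.6 and 27.4 kb (log2 difference 0.60 ± 0.090, limma SE, adjusted p 0.014). In each the 2 genotypes did not overlap, which a ranking by this difference makes likely. In TOX and PTPRC the WT clones lay between the genotypes or beside EP300-KO, with 46.8 and 53.6 kb in TOX and 27.3 and 34.7 kb in PTPRC. Steeper differences were seen at 2 narrower domains. HIVEP3, a zinc-finger factor gene, had 22.6 and 25.9 kb in CREBBP-KO against 6.23 and 7.82 kb in EP300-KO, with 20.7 and 25.5 kb in WT (log2 difference 1.67 ± 0.14, limma SE, adjusted p 0.0041). ANKRD33B had 15.5 and 21.6 kb in CREBBP-KO against 2.08 and 2.79 kb in EP300-KO, with 19.9 and 20.6 kb in WT (log2 difference 2.76 ± 0.17, limma SE, adjusted p 0.0020). Both EP300-KO clones were thus far below every other clone at these 2 genes. NCOA3, a coactivator gene, RFTN1, whose product organises lipid rafts of B cells, CAMK2D, a kinase gene, and C12orf77 with its neighbour LRMP made up the rest of the named ones. Calls at TOX, IGLL5, NCOA3, PTPRC, RFTN1 and C12orf77 were lost both under quantile normalization and with no filter. Those at TOX, PTPRC, IGLL5 and RFTN1 were also lost in the fit of all 6 clones, and RFTN1 kept its call under only 3 of 10 other settings. The calls at HIVEP3, ANKRD33B and CAMK2D held under 10 of 10 other settings. Of these 3, only ANKRD33B kept its call under every clone left out of the fit of all 6 clones.

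**Figure D4:**
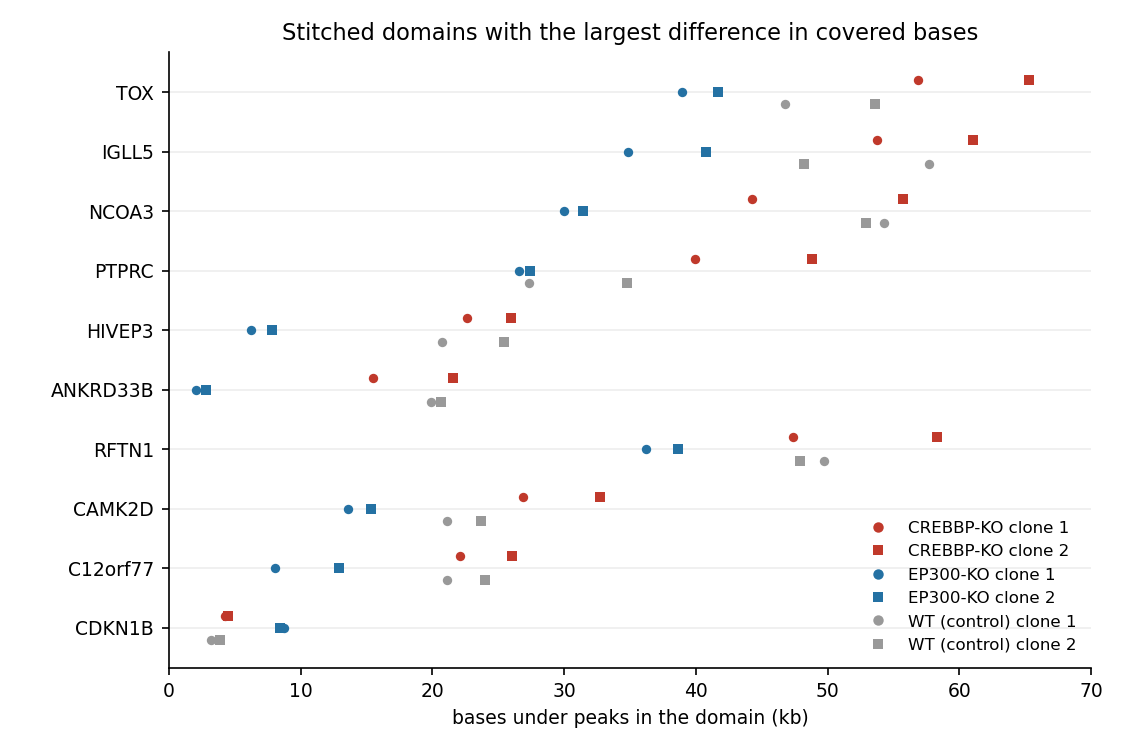
Points give the bases under peaks (horizontal axis, kb) in each clone for the named domains with the largest difference in covered bases, control clones in grey. CREBBP-KO points lie to the right of EP300-KO points in every domain but CDKN1B, and ANKRD33B falls to 2.08 and 2.79 kb in EP300-KO.

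The genes of 13 lists (64 genes, each with 50 kb on either side) were then read for known programmes of germinal-centre B cells. Of these loci 47 held a tested domain, 14 of them a domain higher in CREBBP-KO and 1 a lower one. Over all lists 23 of 96 domains were higher and 1 lower, and 31 of 351 regions higher and 6 lower, so that 24.0% of domains and 8.83% of regions were higher against 20.4% and 6.3% over all features. With no filter 19 of these 23 higher domains lost their call, under quantile normalization 8, with no centring 6 and in the fit of all 6 clones 5. Only 4 kept it in every setting that used all clones, among them the one near S1PR2, that of CD22 and the first one named at BACH2. The median log2 difference of domains was 0.21 over the lists and 0.09 over all domains tested.

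Dark-zone loci held 8 of the 23 higher domains and 16 of the 31 higher regions. Of 6 loci, 4 had a domain higher in CREBBP-KO (among them FOXO1, S1PR2 and BACH2). In these lists 8 of 16 domains (50%) and 16 of 61 regions (26.2%) were higher and 0 lower. Over all features tested, 20.4% of domains and 6.3% of regions were higher. The median log2 difference was 0.68 over the dark-zone domains. These shares were not tested. FOXO1, the factor that sets up the dark-zone programme, had 46.9 and 54.4 kb under peaks in CREBBP-KO against 27.5 and 30.1 kb in EP300-KO, with 53.8 and 49.1 kb in WT. All 3 of its tested domains were higher in CREBBP-KO, the largest with a log2 difference of 0.76 ± 0.11 (limma SE, adjusted p 0.012, and 0.073 with no filter). The other 2 domains also lost their calls with no filter. That at chr13:41266044-41281275 lost it too with no centring, under quantile normalization and with peaks joined across 5 kb. The genotypes did not overlap in any of the 3, which a call makes likely. Of the short regions in the gene, 3 that held 503 to 1684 bases in the CREBBP-KO clones were bare in both EP300-KO clones. S1PR2, the receptor that keeps B cells in the germinal centre, had 30.1 and 36.3 kb against 23.3 and 23.6 kb. Of its 3 domains 1 was higher, about 20 kb outside the gene (log2 difference 1.16 ± 0.12, limma SE, adjusted p 0.0064). The domain over the gene did not pass (log2 difference 0.25 ± 0.095, limma SE, adjusted p 0.12). BACH2 as a whole had 37.4 and 40.4 kb in CREBBP-KO against 14.4 and 20.3 kb in EP300-KO, with 3 of 5 domains higher. The BACH2 domain with the most bases, at chr6:90983346-91027223, did not pass (log2 difference 0.91 ± 0.26, limma SE, adjusted p 0.063). CXCR4, the receptor that draws cells to the dark zone, had 3.73 and 6.78 kb against 1.89 and 3.25 kb and did not pass (limma adjusted p 0.13). CCND3, the cyclin of dark-zone division, overlapped between genotypes at 9.97 and 15.8 kb against 9.63 and 10.5 kb.

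Light-zone and antigen-presentation genes showed no domain call, in 5 and 4 domains tested. With 20.4% of all domains tested higher in CREBBP-KO, so few domains cannot set these lists apart from the rest. MYC, which marks positively selected cells, had 7.90 and 8.46 kb in CREBBP-KO against 6.88 and 6.51 kb in EP300-KO (log2 difference 0.26 ± 0.12, limma SE, adjusted p 0.17). BCL2A1, an NF-kB-driven survival gene, had 10.3 and 11.9 kb against 9.73 and 9.18 kb (limma adjusted p 0.095). CD83, the surface marker of light-zone cells, had 0.960 and 1.75 kb in CREBBP-KO against 1.33 and 1.48 kb in EP300-KO, both below the 5.53 and 3.87 kb of WT. A short region beside it was lower in CREBBP-KO, with 346 and 331 bases against 727 and 594. It passed the filter through the EP300-KO clones alone, and its call was lost under 5 of its 7 other settings. CIITA, the master regulator of MHC class II genes, had 14.6 and 17.6 kb in CREBBP-KO against 12.8 and 13.5 kb in EP300-KO, with no domain called. Yet 2 regions about 10 kb outside the gene were lower in CREBBP-KO, one of them bare there and with 585 and 524 bases in EP300-KO (chr16:10965145-10965770) and the other with its call lost under 3 of 8 other settings. At HLA-DRA, HLA-DPA1 and HLA-DMB, MHC class II genes themselves, the 4 knock-out clones covered 0 to 226 bases, so these loci could not be compared.

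**Figure D5:**
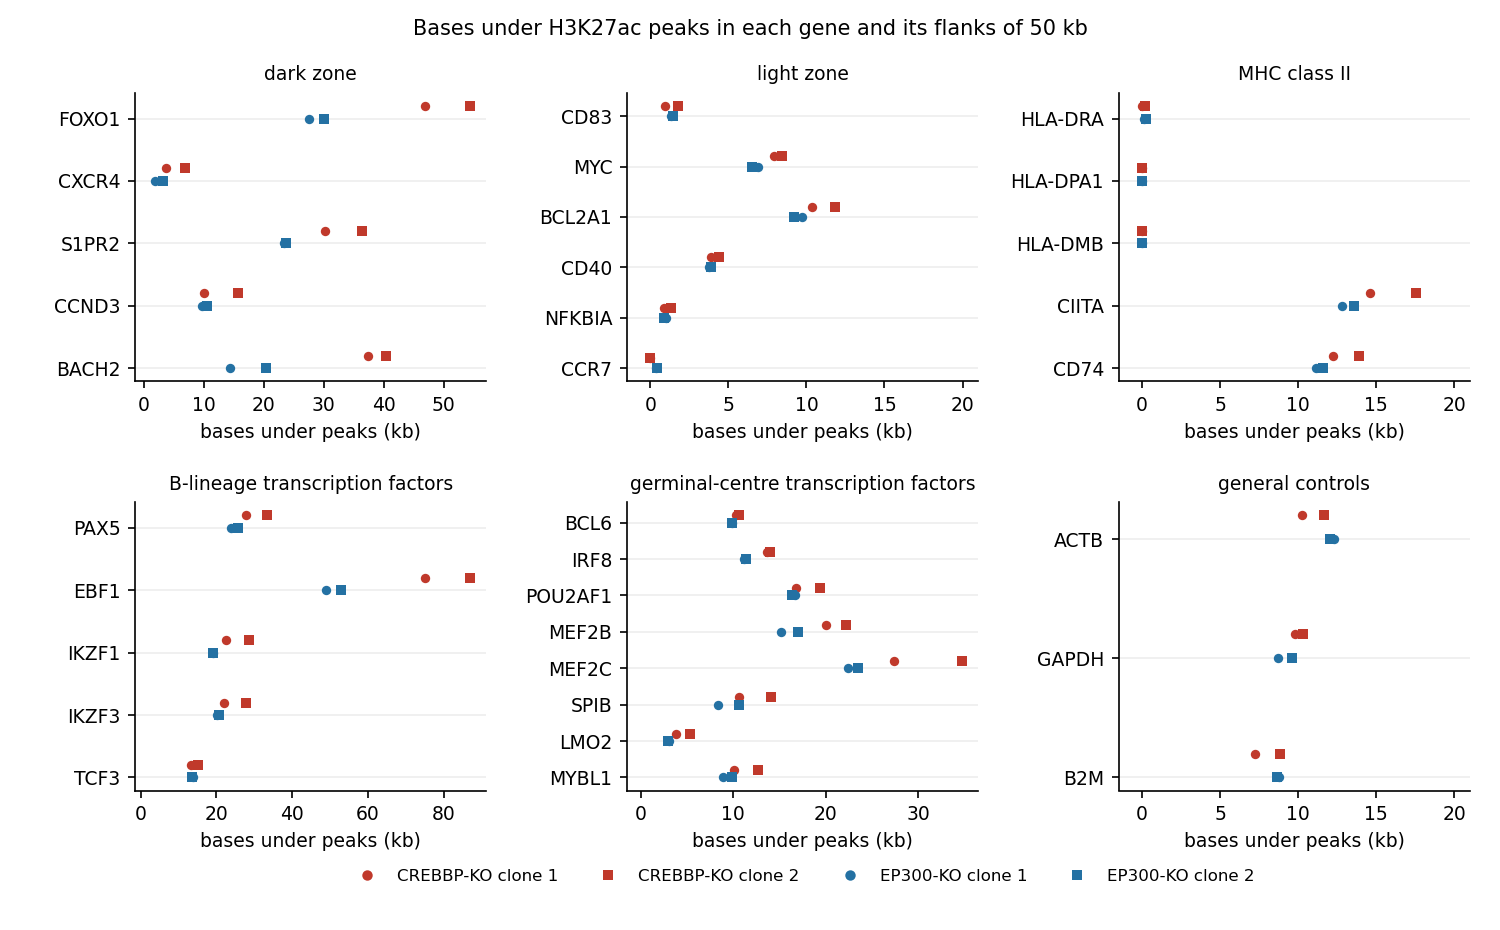
Points give the bases under peaks (horizontal axis, kb) over each gene with 50 kb on either side in the 4 knock-out clones, for genes of 6 of the 13 lists. The genotypes separate at most loci shown, among them FOXO1, S1PR2, BACH2 and EBF1 but also BCL6 and the control GAPDH. They overlap at CCND3, CD83, CD40, TCF3 and B2M, among others. At ACTB they run the other way (10.2 and 11.7 kb against 12.3 and 12.1 kb).

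Among B-lineage factors 5 of 15 domains were higher (33.3%), against 20.4% of all domains tested. Of these 5, 4 lay at EBF1, which with PAX5 sets B-cell identity. EBF1 had 75.0 and 86.9 kb in CREBBP-KO against 48.9 and 53.0 kb in EP300-KO, with 75.6 and 78.0 kb in WT, and 4 of its 6 domains were higher in CREBBP-KO. The widest of these held 28.7 and 32.5 kb against 18.2 and 18.2 kb (log2 difference 0.63 ± 0.094, limma SE, adjusted p 0.014). Its call was lost with no filter, under quantile normalization and in the fit of all 6 clones (limma adjusted p 0.077, 0.069 and 0.058), and another EBF1 domain lost its call under 4 of 10 other settings. IKZF1, which encodes Ikaros, had 1 of 3 domains higher, about 20 kb outside the gene, and PAX5 had 1 short region higher. IKZF3 and TCF3 had no call. Of the 8 germinal-centre factors, MEF2C, LMO2 and MYBL1 had a higher domain, those of MEF2C and LMO2 with calls lost under 4 other settings each, while BCL6, the central repressor of the germinal centre, was nearly alike in the 4 clones (10.3 and 10.6 against 9.89 and 9.90 kb, limma adjusted p 0.85). At MYBL1 the 2 sides of the gene went apart. A domain about 40 kb from it held 7.64 and 10.4 kb in CREBBP-KO against 4.82 and 3.55 kb with EP300 lost (limma adjusted p 0.017). One about 20 kb away held 843 and 1059 bases against 2348 and 2988 and passed the filter through the EP300-KO clones alone. The second was the only lower domain in all 13 lists.

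Of the domains at B-cell surface and receptor genes 4 of 17 were higher (23.5%), against 20.4% of all domains tested, and they lay at CD22 and LYN. CD22, a brake on B-cell receptor signals, had 17.0 and 19.7 kb in CREBBP-KO against 9.65 and 10.1 kb in EP300-KO (log2 difference of its domain 0.82 ± 0.095, limma SE, adjusted p 0.0080). LYN, the kinase that starts those signals, had 20.3 and 26.9 kb against 11.2 and 12.9 kb, with 3 of 4 domains higher. In the steepest, 5122 and 6440 bases in CREBBP-KO stood against 457 and 1239 in EP300-KO, and it passed the filter through the CREBBP-KO clones alone. At both genes the genotypes did not overlap and WT stood with CREBBP-KO. CD79A, CD79B, SYK, BLNK and PTPN6 had no call, and MS4A1, which encodes CD20, had 1 short region about 30 kb away that was seen in EP300-KO alone (693 and 503 bases). GNA13, which acts below S1PR2, and BCL2 each had 1 domain higher, the first with 29.3 and 38.3 kb against 21.9 and 21.5 kb (limma adjusted p 0.022). Both calls were lost with no filter, under quantile normalization and in the fit of all 6 clones, and that at GNA13 with no centring too. The domain called for BCL2L11, a death gene, lay about 50 kb away. MCL1, the NF-kB genes TNFAIP3, NFKB1, REL and BIRC3, the plasma-cell factors IRF4, PRDM1 and XBP1 and the markers of other lineages had no call.

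The edited genes and general controls showed no domain call. CREBBP had 1.55 and 1.88 kb under peaks in its own knock-out and 1.71 and 1.70 kb in EP300-KO, and EP300 had 4.32 and 4.67 kb against 4.58 and 4.30 kb, so the clones overlapped. Acetylation at these genes does not check the edit. PPP1R12C had 1 region lower in CREBBP-KO (792 and 906 bases against 1354 and 1265, limma adjusted p 0.030), a call lost with no filter, with no centring and in the fit of all 6 clones. Of the controls, GAPDH had 9.82 and 10.3 kb against 8.71 and 9.63 kb, B2M overlapped, and ACTB had 10.2 and 11.7 kb in CREBBP-KO against 12.3 and 12.1 kb in EP300-KO with no call (limma adjusted p 0.082).

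The control clones did not choose these regions, and their peaks there are given as counts. Of the 1099 regions higher in CREBBP-KO, 1017 had a peak in both WT clones (92.5%) and 10 in neither. Of the 396 lower ones, 264 had a peak in both (66.7%) and 72 in neither, against 97.6% and 0.659% of all regions tested. Of the 22555 regions held by all 4 clones, 97.3% were present in both WT clones and 0.417% in neither. Of the 3340 regions of CREBBP-KO alone, 2038 were present in both WT clones (61.0%) and 422 in neither (12.6%). Of the 1389 of EP300-KO alone, 327 were in both (23.5%) and 575 in neither (41.4%). Among those that covered at least 1 kb in either clone, 205 of 236 for CREBBP-KO were present in both WT clones, and 10 of 83 for EP300-KO, of which 53 were in neither. These shares were not tested.

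Of the regions higher in CREBBP-KO, 5.64% stood alone in their domain, and of the lower ones 28.3%, against 14.8% of all regions tested. Both kinds were shorter than the rest, with a median of 846 and 730 covered bases against 1008.5. Their median score, as a percentile within each clone's list, was 44.6 for the higher, 53.2 for the lower and 72.6 for all regions tested. These shares describe the called regions and were not tested.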

How the data were processed

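H3K27ac was mapped by ChIP-seq. The submitters' processing notes name CASAVA 1.8, Bowtie2 2.1.0, SAMtools 0.1.19 and the build hg19, and no source used here names the peak caller. Per the file headers a list belongs to 1 library and its input, so no clones were pooled. The deposited starts and ends are genome positions. Starts are taken to be 0-based, so a printed start may be off by 1. The deposited score of a peak (from 20 or 21 to 170 on chromosomes 1 to 22, to which all results but 1 alternative are limited) has no stated meaning and is the authors' own value. Covered bases were computed from the peaks and compared with limma 3.58.1 (R 4.3.3) over the 4 knock-out clones, with Benjamini-Hochberg adjustment over all features tested, after a test on simulated data. Log2 values understate differences of short regions. Named genes are those of the 13 lists and those at the 10 features with the largest log2 difference, or the most bases among regions of 1 genotype alone, in each direction. Their hg19 positions are general knowledge, and all 121 were found on the same chromosome in the RefSeq table of GRCh38. The members and lists were chosen with earlier results of these data known. The limma p-values set a difference between genotypes against the spread between clones, an estimate that limma draws toward that of all features tested. Alternatives were other pseudocounts, filters, scalings, score and length limits and left-out clones. The inputs were not analysed here on their own. Results at 3 of the named genes are not reported here.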

Additional observations from a re-analysis of the deposited data

How the results depend on the processing

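Of the named features with a call, none changed direction under any setting. These features were chosen for their calls, and listed loci without a call were not checked for direction. Of the 84 named features higher in CREBBP-KO, 36 kept their call in every setting that used all clones of its fit, and of the 31 lower ones 22 did. Region calls, 1099 higher and 396 lower, became 2021 and 714 with a pseudocount of 1000 bases and 2360 and 1092 with no filter. The lower ones became 240 under the stricter filter and 210 with no centring. Leaving out 1 clone gave 0 to 1835 higher and 0 to 349 lower regions in the fit of 4 clones, and 440 to 1253 higher and 36 to 311 lower in the fit of 6 clones, an alternative chosen after seeing the data (655 and 184 without the first CREBBP-KO clone, 70 lower without the second EP300-KO clone). Domain calls, 837 higher and 158 lower, became 438 and 521 with no filter, 428 and 325 under quantile normalization, and 49 and 50 lower under the stricter filter and with no centring. Leaving out 1 clone gave 0 to 758 higher and 4 to 63 lower domains in the fit of 4 clones. In the fit of 6 clones it gave 102 and 17 without the first CREBBP-KO clone, 25 and 20 without the second, 133 and 2 without the first EP300-KO clone, and 309 and 13 without the second. Regions of CREBBP-KO alone ranged from 4114 to 10608 and those of EP300-KO alone from 1622 to 3083 with 1 clone left out. Wide domains of CREBBP-KO alone were 220 and of EP300-KO alone 9 at 5 kb covered, and 119 to 275 and 1 to 7 with 1 clone left out. With 100 kb on either side, 2 listed loci had a lower domain. The cause of these shifts was not tested. Centring moved the median log2 difference by 0.16 over regions and 0.11 over domains. No paired analysis was possible because replicate numbers only name clones of different guides and pair nothing across genotypes. The depth of single libraries is unknown, so no limit from it can be given.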

Other observations

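Region calls were spread over all 22 autosomes. The share of tested regions higher in CREBBP-KO ran from 2.35% on chromosome 19 (21 of 895) to 9.23% on chromosome 13 (42 of 455), and the share lower from 1.14% on chromosome 9 (8 of 701) to 3.74% on chromosome 21 (7 of 187). Chromosome 19 was thus the autosome where the 2 directions came closest, with 21 higher and 19 lower. These shares are descriptions with no test.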
